A study of Canis lupus familiaris with 28 samples.

Results

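Histiocytic sarcoma (HS) tumors were set against blood of unaffected dogs of the same breed, the Bernese Mountain Dog (BMD). The comparison held the 15 tumors whose disease state is given as Histiocytic Sarcoma and the 3 samples given as Blood and Unaffected, which together are 18 of the 28 samples of the series. The question was which genes differed between the tumor tissue and blood when the breed was held fixed. No treatment or engineered allele is given for either group.

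HS is a cancer of histiocytes, the tissue cells of the macrophage and dendritic cell lineages that derive from bone marrow. Such cells carry lysosomes and MHC class II molecules, with which they digest and present antigens. Blood holds few of them: its leukocytes are mainly neutrophils, lymphocytes and monocytes, beside red cells and platelets. A tumor sample in turn holds vessels, matrix-forming stroma, infiltrating leukocytes and remnants of the organ it grew in.

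The tumors were taken from lung in 5 cases, liver in 3, spleen in 2, thorax in 2, and a thoracic mass, a leg mass and the shoulder in 1 each. RNA depleted of ribosomal and globin transcripts was sequenced, and reads were counted on 32704 genes. Totals were 99701394 to 171815073 counts per tumor and 133524755 to 147573323 per blood control. CPM are read counts scaled to a common total, that of the genes tested multiplied by the normalization factor of the library. On that scale 3 counts correspond to 0.0159 to 0.0386 CPM. All blood was sequenced on another flow cell than all tumors, so flow cell, tissue and disease cannot be told apart in any value below. The lung, spleen and liver controls, 1 library each, came from German Shepherd Dogs on the tumor flow cell, and their levels are given beside the tumors without a test. Liver levels carry a further limit, since the normalization factor of that library (0.345) lay far below every other. Tumor and blood are both mixed samples, and in such bulk RNA fewer cells of a type and less RNA per cell cannot be told apart.

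Levels are given as log2 CPM with a prior count of 2 and changes as log2FC ± SE, tumor minus blood, so a log2FC of 1 is a doubling. A gene was called at a log2FC beyond 1.5 in either direction and an adjusted p below 0.05 by edgeR's quasi-likelihood test with Benjamini-Hochberg adjustment over all 20020 genes tested. Of these, 5095 were called (25.4%), 3214 higher in HS (16.1%) and 1881 lower (9.4%). The median log2FC of all genes tested was 0.40. Every tumor lay above every blood control for 2121 genes (10.6%) and below every one for 1749 (8.74%), together 3870 (19.3%). Blood had 0 counts for 726 of the genes called higher and 1 to 3 counts for a further 110. Among the 1014 tested genes that could be given a name, 304 were called, 187 higher and 117 lower. Most genes tested could not be named, so every named gene and gene list below is drawn from these 1014 only. The smaller blood group weighed most on these counts: without blood control 1 the number called was 3116, without control 2 it was 3633 and without control 3 it was 3922, whereas leaving out any tumor gave 4905 to 5261.

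**Figure D1:**
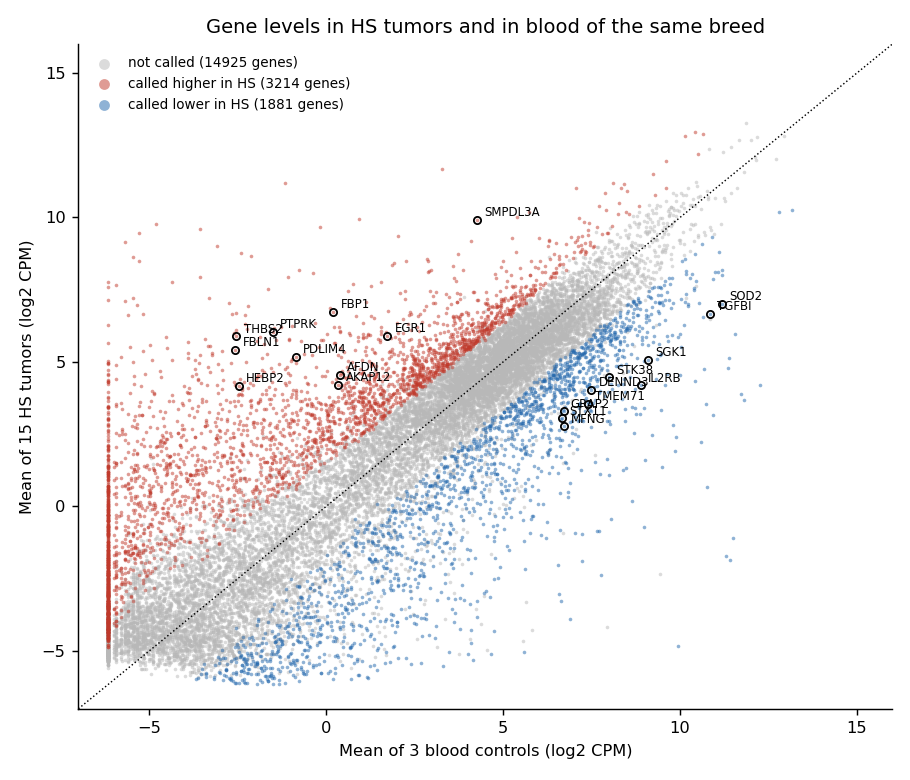
Mean level of each tested gene in the 3 blood controls (x axis, log2 CPM) and in the 15 HS tumors (y axis, log2 CPM), with the 3214 genes called higher in red, the 1881 called lower in blue and the rest in gray. The dotted line marks equal levels, and circles mark 20 genes, 10 at each end of the log2FC, drawn from those called that carried a dog symbol, averaged 3 log2 CPM or more and showed separate tumor and blood ranges, with *SMPDL3A* far above the line and *SOD2* far below it.

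The genes described first were taken from those called that carried a dog symbol, averaged 3 log2 CPM or more and had separate tumor and blood ranges, so that their separation is not a finding. The 10 with the highest log2FC spanned the lysosome, the matrix, cell junctions and metabolism. *SMPDL3A* encodes a lysosomal and secreted phosphodiesterase that cleaves nucleotides. Its level was 3.84, 4.46 and 4.46 log2 CPM in blood and ran from 6.80 in tumor HS51 through a median of 9.85 to 12.48 in HS48. The log2FC was 6.30 ± 1.23 (adjusted p = 8.21e-04), a 78.8-fold higher level. In lung, spleen and liver the level was 5.02, 4.70 and 3.52 log2 CPM, below each of the 15 tumors as well. *PTPRK*, a receptor-type tyrosine phosphatase found at cell contacts, was low in blood. It measured -1.37, -2.38 and -0.79 log2 CPM in blood and 4.61 to 7.52 in the tumors, with a median of 6.09 (log2FC 7.69 ± 0.84, adjusted p = 3.65e-06). The organ controls lay inside that tumor range or just above it, at 6.20 in lung, 5.80 in spleen and 7.82 in liver.

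*HEBP2*, a heme-binding protein, *PDLIM4*, which binds actin filaments, *AFDN*, the scaffold afadin of adherens junctions, and *AKAP12*, which anchors protein kinase A, were also among the 10. Their log2FC values were 6.76, 6.38, 4.44 and 4.38 (adjusted p = 9.13e-05, 5.24e-05, 1.83e-04 and 0.00962). *AKAP12* lost its call without blood control 1 (adjusted p = 0.0618) or control 2 (adjusted p = 0.0521). For *AFDN* and *AKAP12* the organ controls were as high as the tumors or higher: *AKAP12* had a tumor median of 4.49 log2 CPM and stood at 6.95 in lung and 7.82 in spleen. With the spleen and lung controls added to blood, the log2FC of *AFDN* turned to -0.63 and that of *AKAP12* to -1.19. Over the 10 top genes, all 3 organ controls lay above the highest blood control for 9, with *SMPDL3A* as the exception. Across all genes called higher the same held for 2308 of 3214, or 71.8%.

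**Figure D2:**
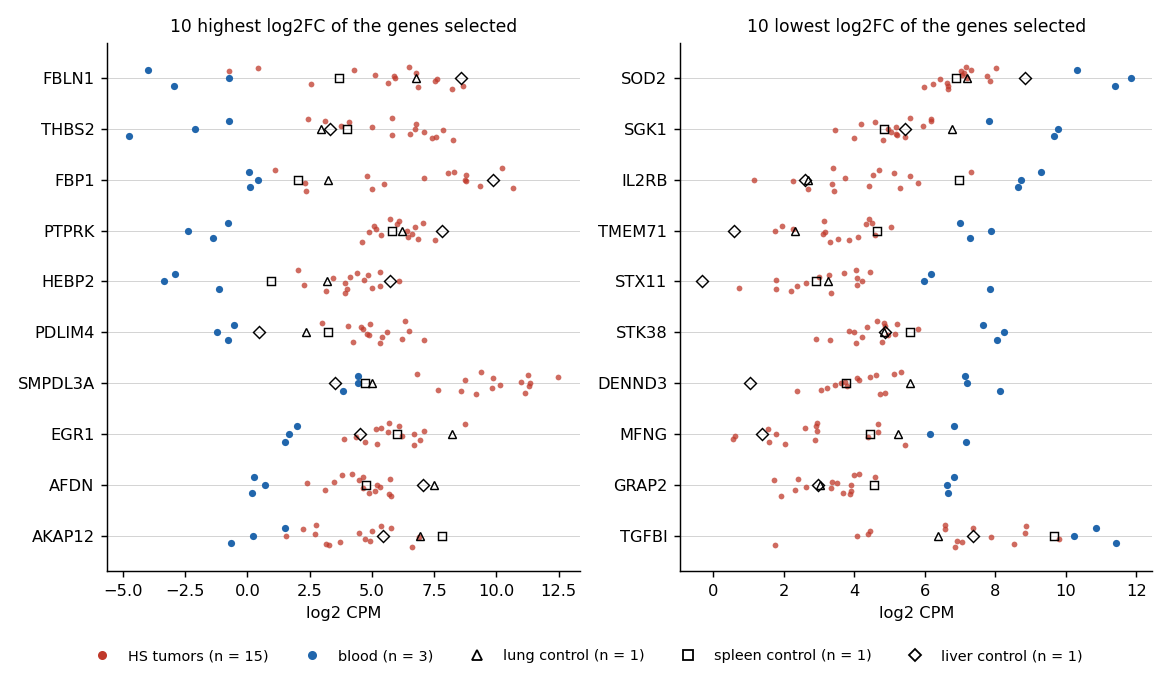
Level of each gene in every library (x axis, log2 CPM) for the 10 genes at the upper end (left) and 10 at the lower end (right) of the log2FC, drawn from those called that carried a dog symbol, averaged 3 log2 CPM or more and had separate tumor and blood ranges, with 1 point per HS tumor in red and per blood control in blue, and open symbols for the lung, spleen and liver controls. The gap between tumor and blood points follows from that choice, and the organ symbols lie among or near the tumors for most, but not for *SMPDL3A*.

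The 10 genes with the lowest log2FC, chosen in the same way, included leukocyte, kinase and membrane traffic genes. *SOD2*, the mitochondrial superoxide dismutase, was 11.40, 11.85 and 10.32 log2 CPM in blood and 5.97 to 8.02 in the tumors, with a median of 7.06. The log2FC of -4.20 ± 0.32 corresponds to an 18.4-fold lower level (adjusted p = 1.56e-07). *SGK1*, a kinase induced by serum and glucocorticoids, fell by 4.08 on the log2 scale (adjusted p = 1.25e-06). *STK38*, a kinase of the NDR family, *DENND3*, an activator of Rab proteins, *TMEM71*, *STX11*, a membrane fusion protein needed for the granules of cytotoxic lymphocytes, and *MFNG*, a glycosyltransferase that modifies Notch receptors, had log2FC values between -3.61 and -3.29. All 3 organ controls lay below the lowest blood control for each of the 10 lowest genes. *SOD2*, for example, was 7.19 in lung, 6.90 in spleen and 8.85 in liver. Of all genes called lower, 1307 of 1881 (69.5%) showed that arrangement.

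Markers of the cells that fill blood were mostly lower in the tumors. Of 10 lymphocyte genes 7 fell and none rose, beside 9.4% and 16.1% of all genes, with a median log2FC of -3.58. *TCF7*, a transcription factor of T cells, was 5.53, 5.48 and 7.19 log2 CPM in blood and -4.65 to 2.81 in the tumors, with a median of -1.36 (log2FC -5.93 ± 0.95, adjusted p = 1.43e-04). *IL2RB*, the beta chain of the interleukin-2 receptor, was 8.66, 8.74 and 9.29 in blood against 1.15 to 7.31 in the tumors (log2FC -3.96 ± 0.69, adjusted p = 2.95e-04). Liver tumor HS50 had the highest level of *TCF7*, *IL2RB*, *THEMIS*, *CD226* and *GRAP2* among the tumors, and still lay below all blood for each. *THEMIS*, a T-cell receptor signaling protein, and *CD226*, an activating receptor of T and NK cells, fell by 4.42 and 4.06. The summed level of the 10 genes was 84.1 to 353 CPM in the tumors and 1106 to 1401 CPM in blood. The count of 7 held when any blood control or tumor was left out.

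All 6 red cell and platelet genes were highest, among the tumors, in HS51, taken from spleen. Of these genes 3 fell and none rose, beside 9.4% and 16.1% of all genes. The summed level was 12.2 to 202 CPM in the tumors, HS51 being the highest, against 286 to 507 CPM in blood. *LY6G6F*, a platelet surface protein, was 6.80, 7.78 and 5.14 log2 CPM in blood, 3.40 in HS51, and had a median of -2.69 over the tumors (log2FC -7.16 ± 1.41, adjusted p = 8.49e-04). *MPIG6B*, an inhibitory platelet receptor, fell by 5.47 and *FECH*, which inserts iron into heme, by 2.83. *TSPO2*, an erythroid protein, had 0 counts in 11 tumors and reached 4.03 log2 CPM in HS51, above all blood. *TRIM58*, an erythroid ubiquitin ligase, was 4.85, 1.81 and 4.64 log2 CPM in blood and 3.91 in HS51, with 0 counts in 9 tumors, and missed the test (log2FC -4.23 ± 2.01, adjusted p = 0.109). Without HS51 it passed it, at -11.25 (adjusted p = 5.1e-07), and 4 of the 5 genes then tested were called lower, *TSPO2* no longer passing the filter on low counts. Over all genes, leaving out HS51 gave 5261 calls, of which 4984 were shared with the 5095.

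Most of the myeloid genes measured were also lower in the tumors. Of 10 such genes 6 fell and 1 rose, beside 9.4% and 16.1% of all genes, with a median log2FC of -1.71. All 3 organ controls also lay below the lowest blood control for each of the 6. For none of the 6 did the tumor median lie below all 3 organs. With spleen and lung added to the controls, 1 myeloid gene was called lower and 0 higher. *LYZ*, lysozyme, was 12.98, 13.59 and 12.88 log2 CPM in blood and 7.91 to 13.24 in the tumors, with a median of 10.18. Thoracic tumor HS14 lay inside the blood range and the other 14 tumors below it (log2FC -2.34 ± 0.65, adjusted p = 0.0107). *RAC2*, the GTPase of blood cells, fell by 2.42 (adjusted p = 2.27e-04), and *NFAM1*, a receptor with an activation motif, by 2.31. *TNFRSF11A*, the receptor RANK of osteoclast precursors and dendritic cells, was the member that rose, from 0.50, -0.80 and -0.07 log2 CPM in blood to a tumor median of 2.60 (log2FC 2.95 ± 0.83, adjusted p = 0.0111). *IFNGR1*, the interferon gamma receptor, had 7 tumors above and 7 below the blood range (log2FC 0.07 ± 0.48, adjusted p = 0.922). The count of lower members was 2 without blood control 1, 3 without control 2 and 5 without control 3, and *RAC2* kept its call each time. *LYZ* (adjusted p = 0.0656) and *TNFRSF11A* (adjusted p = 0.0656) lost theirs without control 2, and *NFAM1* (adjusted p = 0.112) without control 1.

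**Figure D3:**
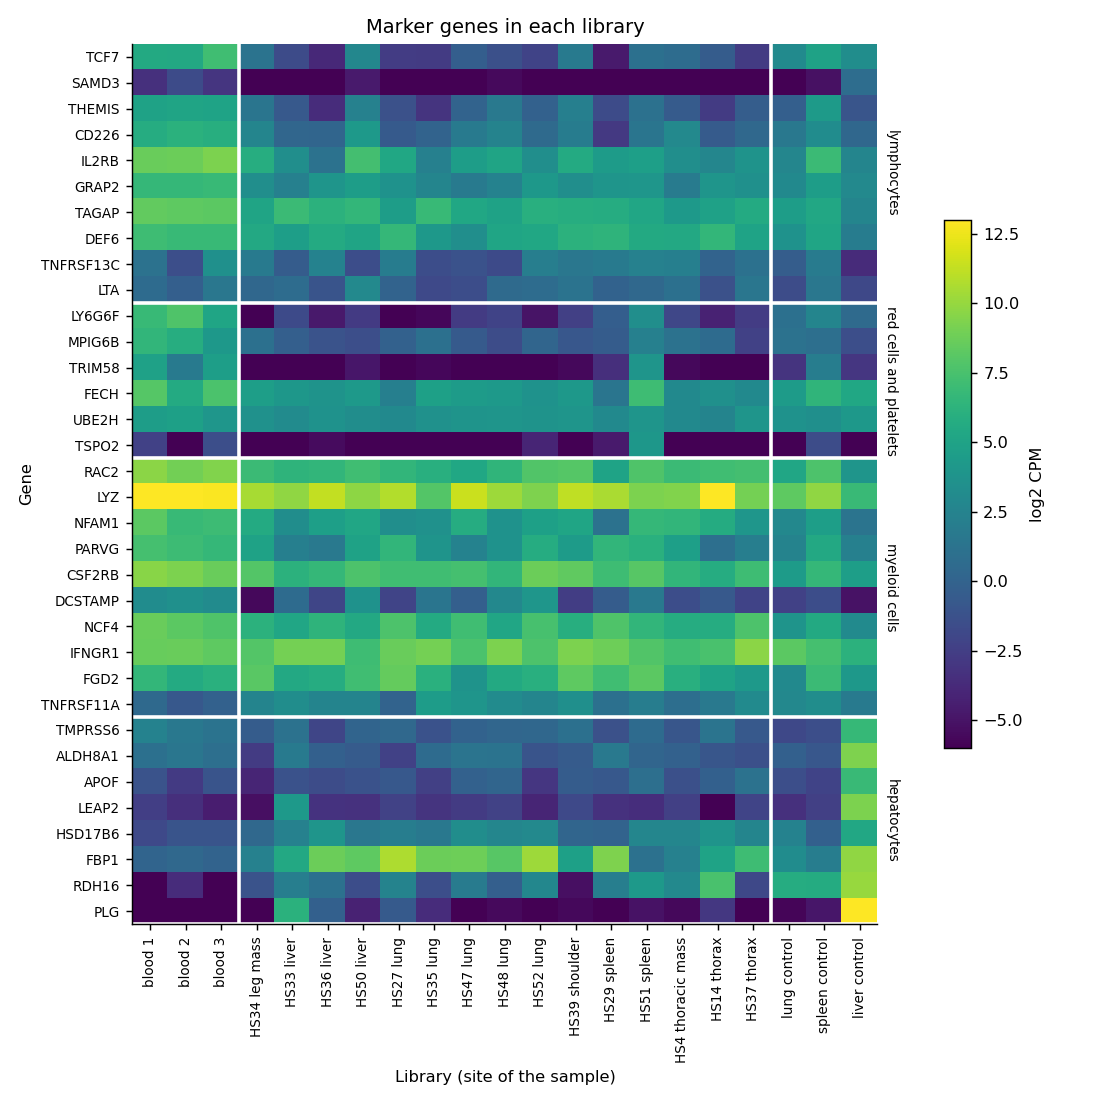
Level (color, log2 CPM) of the lymphocyte, red cell and platelet, myeloid and hepatocyte markers reported here (rows) in the 3 blood controls, the 15 HS tumors ordered by site and the 3 organ controls (columns). Most lymphocyte and platelet genes are brighter in blood than in the tumors. Spleen tumor HS51 stands apart for *TSPO2*, *TRIM58* and *FECH*, and *PLG* is bright in the liver control and, among the tumors, in HS33.

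Genes taken as hepatocyte markers varied from tumor to tumor, and their highest tumors came from several sites, liver among them. Those called higher peaked at different sites: *FBP1* in lung tumor HS27, *RDH16* in thoracic tumor HS14 and *HSD17B6* in liver tumor HS36. Of the members not called, *PLG*, *LEAP2* and *ALDH8A1* peaked in liver tumor HS33, and the rest in tumors of other sites. *LEAP2* reached 18.7 CPM in HS33 against a tumor median of 0.101 CPM. Of 9 hepatocyte genes tested 3 were higher and 1 lower, beside 16.1% and 9.4% of all genes. *FBP1*, a rate-limiting enzyme of gluconeogenesis, was 0.11, 0.42 and 0.08 log2 CPM in blood. Its tumor levels ran from 1.11 in HS51 through a median of 8.06 to 10.66 in the lung tumor HS27 (log2FC 8.35 ± 2.19, adjusted p = 0.00705). That highest tumor exceeded the liver control, at 9.85, and the lung control, at 3.23. *HSD17B6*, a steroid dehydrogenase, also rose without overlap (log2FC 3.94 ± 0.89, adjusted p = 0.00263). *PLG*, plasminogen, a defining hepatocyte gene, had 0 counts in all blood controls and in 5 tumors, reached 6.12 log2 CPM in liver tumor HS33, stood at 13.73 in the liver control and was not called (adjusted p = 0.108). *RDH16*, a retinol dehydrogenase with 9 counts in blood, was called higher but lost the call when any 1 of the blood controls was left out (adjusted p = 0.11, 0.0536 and 0.0967). *TMPRSS6*, a liver protease that limits hepcidin, was the lower member (log2FC -1.66 ± 0.56, adjusted p = 0.0291), and lost its call without blood control 1 (adjusted p = 0.213) or 2 (adjusted p = 0.071). The counts were 2 higher and 0 lower without blood control 1 or 2, and 2 and 1 without control 3. Without the tumors of liver and spleen, the counts were again 3 higher and 1 lower.

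Endothelial genes were higher in part. *FLT4*, the receptor VEGFR3 of lymphatic endothelium, was -1.42, -0.71 and -1.10 log2 CPM in blood and 0.69 to 6.72 in the tumors, highest in shoulder tumor HS39 (log2FC 5.38 ± 1.26, adjusted p = 0.00319). *PODXL*, the vascular sialomucin podocalyxin, rose by 2.85 ± 0.60 (adjusted p = 0.00146). *PTPRB*, the vascular endothelial phosphatase, did not pass (log2FC 0.56 ± 0.73, adjusted p = 0.571), nor did *NOTCH4* (2.42 ± 0.97, adjusted p = 0.0625) or *MYCT1* (-0.90 ± 0.61, adjusted p = 0.256). In the lung control *FLT4*, *PODXL* and *PTPRB* stood at 6.34, 7.99 and 7.98 log2 CPM. With lung and spleen added to the controls, the log2FC turned to -0.51, -1.80 and -3.72.

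Matrix genes gave the highest median of the 21 lists of named genes. Of 21 such genes 13 rose and 2 fell, beside 16.1% and 9.4% of all genes. Their median log2FC was 5.51 beside 0.40 for all genes. Under Benjamini-Yekutieli adjustment 8 were called higher and 1 lower. At an adjusted p under 0.0005 by the same test none of the 21 was called. *FBLN1*, fibulin 1, was at most -0.75 log2 CPM in blood and -0.72 to 8.64 in the tumors, with a median of 5.92 (log2FC 8.78 ± 2.02, adjusted p = 0.00286). HS48 alone lay beside the highest blood control. *THBS2*, a matricellular thrombospondin, was -4.76, -2.11 and -0.74 in blood and 2.43 to 8.27 in the tumors, lowest in HS51 (log2FC 8.52 ± 1.60, adjusted p = 5.93e-04). The median tumor level of *THBS2*, 6.52, exceeded the lung, spleen and liver controls at 2.94, 3.98 and 3.30.

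*CTHRC1*, a collagen triple helix repeat protein of activated stroma, had 0 counts in the 3 blood controls together and 5 to 5381 in each tumor, so it was at least 891-fold higher, or 577-fold without HS4, the highest tumor. *ADAMTS19*, a secreted metalloprotease, also had 0 counts in blood and 1 to 4698 in the tumors, at least 589-fold higher over all tumors and 301-fold without HS47, the highest. Its median tumor level was 0.239 CPM. It lost its call when any 1 of the blood controls was left out (adjusted p = 0.0988 to 0.109). *LAMA2*, the laminin alpha 2 chain, *FNDC1*, *WISP1*, a signaling protein of the CCN family, and *ADAMTS2*, which processes procollagen, rose without overlap by 8.54, 8.49, 7.17 and 5.56. *TGFBI*, a secreted protein that binds collagen and integrins, went the other way. It was 11.41, 10.23 and 10.86 log2 CPM in blood and 1.76 in HS14 to 9.81 in leg tumor HS34, with a median of 6.91 (log2FC -3.17 ± 0.83, adjusted p = 0.00704). *COL11A2*, a fibrillar collagen chain, fell by 2.82 (adjusted p = 0.00238). Both lost their call without blood control 1 (adjusted p = 0.051 and 0.0694). With *TGFBI* included, the summed level of the list was higher in blood (1348 to 2964 CPM) than in most tumors (296 to 1926 CPM). The list kept 8 higher genes without blood control 1 and 9 without control 2 or 3. All 3 organ controls lay above blood for 12 of the 13 genes that rose, and with spleen and lung added to the controls 1 matrix gene was called higher and 3 lower, *LAMA2* turning to -0.49.

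**Figure D4:**
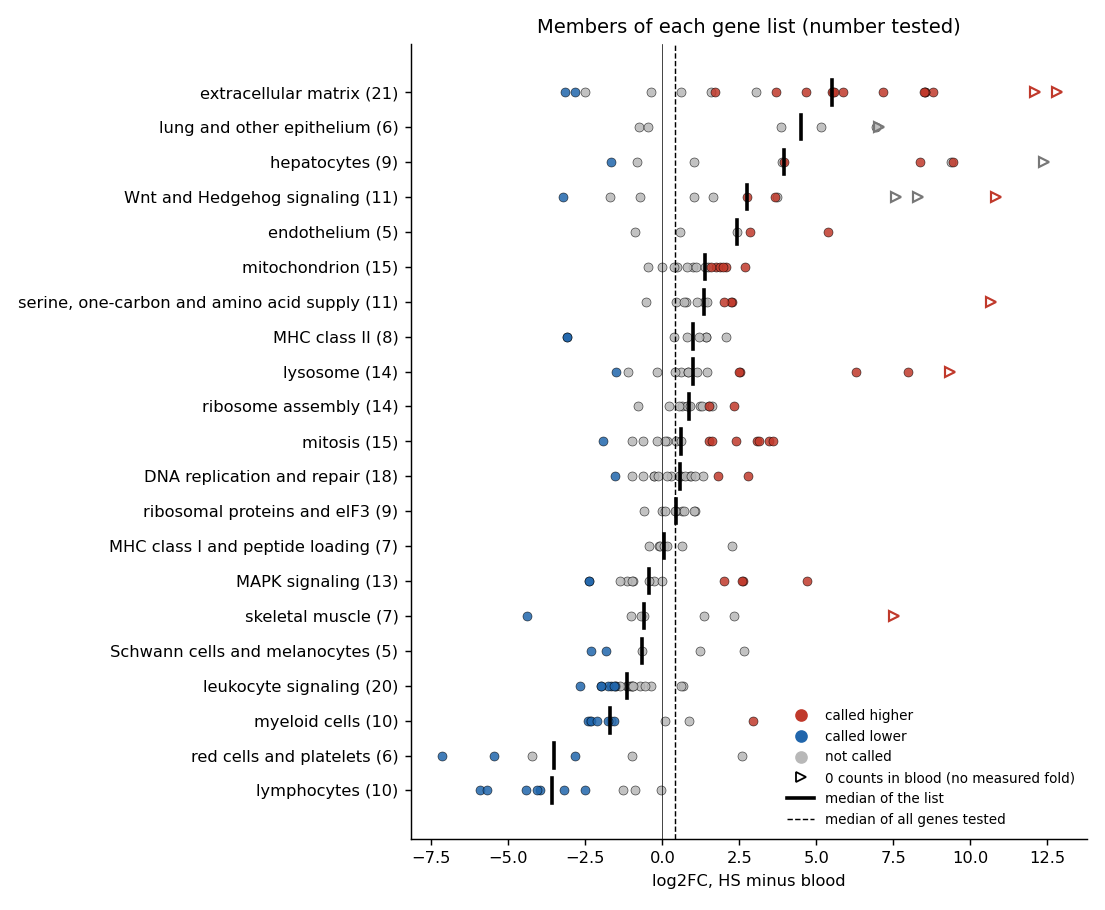
log2FC (x axis, HS minus blood) of the tested members of each of the 21 gene lists (rows, with the number tested), red where called higher, blue where called lower and gray where not called; open triangles are genes with 0 counts in blood, whose log2FC depends on the prior count. Thick bars are list medians, from -3.58 for lymphocyte genes to 5.51 for matrix genes, beside the dashed median of all genes at 0.40.

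Lysosomal genes rose in part. Of 14 lysosomal genes tested 5 rose and 1 fell, beside 16.1% and 9.4% of all genes, with a median log2FC of 0.99. *CTSV*, the protease cathepsin V, was -1.87, -1.89 and -2.07 log2 CPM in blood and 3.93 to 6.81 in the tumors (log2FC 7.97 ± 0.78, adjusted p = 1.5e-06). Its reads may be shared with the closely related *CTSL*, and which of these genes they came from was not tested. *CTSL* itself had 0 counts in all blood and in 11 tumors, reached at most 0.0651 CPM and did not pass the filter. The organ controls of *CTSV* lay between 5.74 and 8.30. *CD63*, a tetraspanin of late endosomes, was 7.26 to 7.63 log2 CPM in blood and 7.98 to 11.84 in the tumors (log2FC 2.51 ± 0.72, adjusted p = 0.0124), but missed the test without blood control 1 (adjusted p = 0.0642) or 3 (adjusted p = 0.0566). *FUCA2*, a fucosidase, rose by 2.48 ± 0.43 (adjusted p = 2.90e-04). *LAPTM4B*, a lysosomal membrane protein, had 0 counts in blood and up to 323 in the tumors, at least 81.6-fold higher, and turned to a log2FC of -2.82 with spleen and lung among the controls. The summed level of the list was 1644 to 8048 CPM in the tumors and 1122 to 1465 CPM in blood.

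Of 8 MHC class II genes 2 fell and none rose, beside 9.4% and 16.1% of all genes. *DLA-DRA*, the alpha chain of the presenting molecule DR, was 11.96, 12.23 and 12.24 log2 CPM in blood and 9.03 in HS29 to 14.31 in HS39, with 6 tumors above and 7 below blood (log2FC 0.38 ± 0.74, adjusted p = 0.72). *HLA-DRB1*, named by its human homolog, lay above blood in 13 tumors and below it in 1, HS47 being the lowest at 9.81 (log2FC 1.43 ± 0.72, adjusted p = 0.125). *DLA-DOA* and *DLA-DOB*, the chains of the regulator DO, which holds back peptide loading in B cells and some dendritic cells, were the genes called. *DLA-DOB* was 5.73, 5.50 and 7.10 in blood and -1.03 to 5.07 in the tumors (log2FC -3.11 ± 0.73, adjusted p = 0.00323). HS50 had the highest tumor level of both and of 7 of the 10 lymphocyte genes, but for *TNFRSF13C*, a receptor of B cells, it lay at -1.54 against a tumor median of 1.55. The part of lymphocytes in this difference was not tested. Both calls were lost without blood control 3 (adjusted p = 0.0718 for *DLA-DOA* and 0.0503 for *DLA-DOB*). None of the 7 genes of MHC class I and peptide loading was called, and their median log2FC was 0.06. *TAP1*, a subunit of the peptide transporter, was 8.37 to 8.52 in blood and 7.44 to 9.52 in the tumors. The MHC genes are near-identical copies in part, and their reads may have been split between them.

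Among mitotic genes, those that rose against blood mostly stood above the organ controls too. Of 15 genes 7 rose and 1 fell, beside 16.1% and 9.4% of all genes, with a median log2FC of 0.62. *GTSE1*, a microtubule-binding protein of G2 and S phase, was 0.46, 1.42 and 2.11 log2 CPM in blood and 4.23 to 6.19 in the tumors (log2FC 3.59 ± 0.57, adjusted p = 1.24e-04). *KIFC1*, a kinesin that clusters centrosomes, was 2.68, 2.65 and 4.07 in blood and 5.28 to 7.36 in the tumors (log2FC 3.15 ± 0.49, adjusted p = 1.14e-04). *CDC25C*, the phosphatase that starts mitosis, was -0.89, 0.38 and 0.03 in blood and 1.90 to 4.00 in the tumors (log2FC 3.09 ± 0.56, adjusted p = 4.63e-04). Every tumor exceeded all blood for these 3 genes, and all 3 organ controls as well. *KIF20A*, a kinesin of cytokinesis, rose by 3.46 ± 0.73, and *CDK4*, the kinase of the G1 phase, by 2.39 ± 0.48. For 6 of the 7 genes that rose the tumor median lay above all 3 organ controls, and for 1 of 7 did all organs lie above blood. Over all genes called higher these shares were 35.5% and 71.8%.

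*CDC14B*, a phosphatase of mitotic exit, fell by 1.91 (adjusted p = 0.0225), and the other 7, among them genes of cohesin and the lamina that cells also use outside mitosis, were not called. Without blood control 1 or 2 the count was 5 higher, with *FBXO5* (adjusted p = 0.111 and 0.0523) and *CENPM* (adjusted p = 0.161 and 0.16) no longer called, and *CDC14B* lost its call without any 1 of the 3 (adjusted p = 0.0723 to 0.0767). Without the tumors of liver and spleen the count was also 5. Of 18 genes of DNA replication and repair 2 rose and 1 fell, a share below the 25.4% of all genes. *RECQL4*, a helicase of replication origins, was -1.68, -1.31 and 0.47 log2 CPM in blood and 0.78 to 3.14 in the tumors (log2FC 2.78 ± 0.61, adjusted p = 0.00197). *DSCC1*, which loads the sliding clamp for cohesion, was called at 1.80 but not without blood control 1 (adjusted p = 0.12) or 2 (adjusted p = 0.0504). *RRM2B*, a ribonucleotide reductase subunit, fell by 1.53, at the edge of the threshold, and lost its call without blood control 1 (adjusted p = 0.057) or 2 (adjusted p = 0.19) or any 1 of 6 tumors.

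Few named genes held every tumor apart from all 6 controls. Of the 20020 genes tested, 261 (1.3%) had every HS tumor above all 6 and 118 (0.589%) had every tumor below. With a name, 8 were above and 9 below, and they are listed here because of that pattern. Above were *SMPDL3A*, *GTSE1*, *KIFC1*, *CDC25C*, *RECQL4*, *NAB2*, *MTFR2*, a mitochondrial fission regulator, and *CYP27B1*, which makes active vitamin D. *CYP27B1* was -2.86 to -2.31 log2 CPM in blood and 0.05 to 5.07 in the tumors (log2FC 5.77, adjusted p = 0.00135), and its lowest tumor lay just above the spleen control at -0.06. Below were *TCF7*, *UTRN*, utrophin, *L3MBTL3*, a reader of methylated histones, *CNKSR3*, *VPS13B*, *DDX17*, *MED23*, *TRIM39* and *HNRNPH1*. *UTRN* was 8.06 to 8.37 log2 CPM in blood and 3.98 to 6.88 in the tumors, with organs from 7.48 to 8.25 (log2FC -2.67 ± 0.37). The splicing and RNA processing proteins *DDX17* and *HNRNPH1* had log2FC values of -1.41 ± 0.26 and -0.78 ± 0.36 and were not called.

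**Figure D5:**
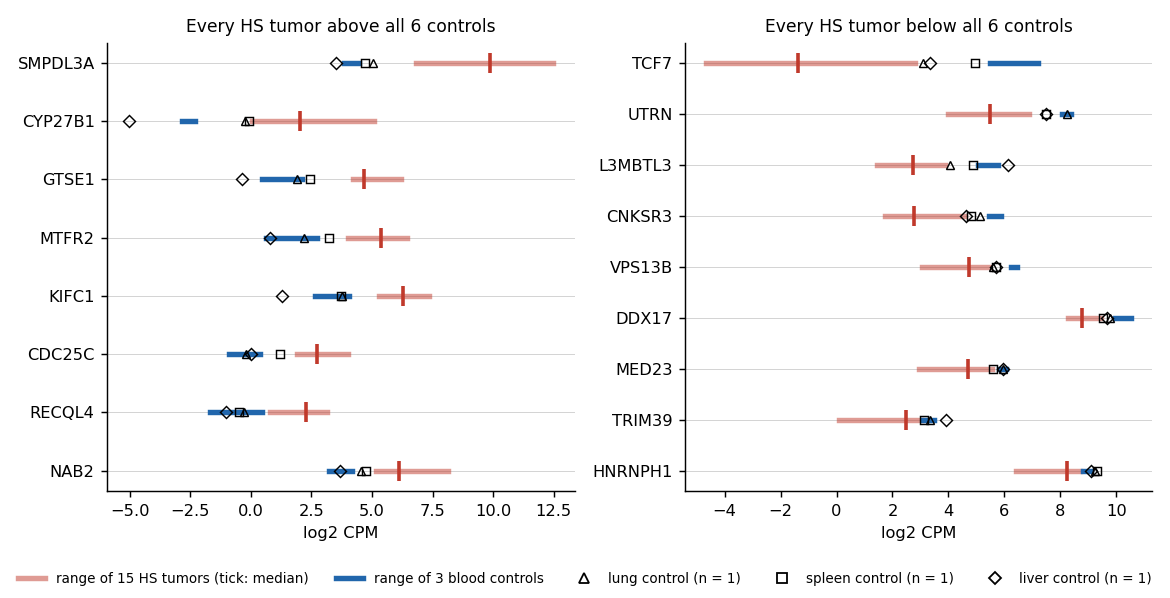
Range of the 15 HS tumors (red, tick at the median) and of the 3 blood controls (blue) with the lung, spleen and liver controls (open symbols), on an x axis of log2 CPM, for the 8 named genes with every tumor above all 6 controls (left) and the 9 with every tumor below (right). *SMPDL3A* leads the left panel with a tumor median of 9.85, and *TCF7* the right panel with -1.36.

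Genes of serine and one-carbon metabolism and of the mitochondrion were higher or not called, and none was lower. Of 11 genes of serine, one-carbon and amino acid supply 4 rose, beside 16.1% of all genes (median log2FC 1.35). *SHMT2*, which turns serine into glycine in mitochondria, was 4.72, 4.89 and 5.47 log2 CPM in blood and 5.43 to 8.39 in the tumors (log2FC 2.25 ± 0.55, adjusted p = 0.00461). *GLDC*, the glycine decarboxylase, had 0 counts in blood and 5 to 1278 in each tumor, at least 234-fold higher, and stood at 11.39 log2 CPM in the liver control against at most 3.04 in a tumor, liver tumor HS33. *PSAT1*, of serine synthesis, and *GCAT*, of threonine breakdown, had log2FC values of 2.23 and 2.01. *GCAT* lost its call without blood control 1 (adjusted p = 0.094) or 2 (adjusted p = 0.0988), and *PSAT1* when any 1 of the blood controls or of 9 tumors was left out (adjusted p = 0.0533 to 0.179).

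Of 15 mitochondrial genes tested 6 rose, beside 16.1% of all genes (median log2FC 1.39). The summed level was 1184 to 1930 CPM in the tumors against 737 to 854 CPM in blood. *MRPL13*, a protein of the mitochondrial ribosome, was 2.26, 3.60 and 3.47 log2 CPM in blood and 4.70 to 6.88 in the tumors (log2FC 2.68 ± 0.45, adjusted p = 2.32e-04). *TSFM*, a mitochondrial elongation factor, and *ME2*, a malic enzyme, rose without overlap by 1.98 and 1.88. *MRPL55* lost its call when any 1 of the blood controls was left out (adjusted p = 0.0642 to 0.119). The list held 3 higher genes without blood control 1, 4 without control 2 and 5 without control 3. Of 14 ribosome assembly genes 2 rose, a share below the 16.1% of all genes, and none fell (median log2FC 0.86). The 2 were *RPP21*, at 2.33, and *WDR46*, just past the threshold. *RPP21* lost its call without any 1 of the blood controls (adjusted p = 0.0574 to 0.0937), and *WDR46* without blood control 1 (adjusted p = 0.0507) or any 1 of 4 tumors, where its log2FC was under the threshold. None of 9 ribosomal protein and eIF3 genes was called, and their median of 0.43 lay beside the 0.40 of all genes.

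Genes of leukocyte signaling were lower or not called. Of 20 genes of leukocyte signaling 7 fell and none rose, beside 9.4% and 16.1% of all genes (median log2FC -1.14). All 3 organ controls also lay below the lowest blood control for each of the 7. With spleen and lung added to the controls, 2 of the 20 were called lower. *ARHGAP9*, a GTPase-activating protein of hematopoietic cells, was 8.19, 7.95 and 7.11 log2 CPM in blood and 3.52 to 5.95 in the tumors (log2FC -2.67 ± 0.31, adjusted p = 5.85e-06). *PIM1*, a kinase induced by cytokines, fell by 1.98 (adjusted p = 4.66e-05), *IRAK3*, a brake on Toll-like receptor signals, by 2.01, and *MALT1*, the protease of antigen receptor signaling to NF-κB, by 1.75. The count was 4 without blood control 1, and *IRAK3* lost its call there (adjusted p = 0.06).

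In the MAPK list 4 of 13 genes tested rose and 2 fell, beside 16.1% and 9.4% of all genes. *EGR1*, an early response gene downstream of ERK, was at most 2.01 log2 CPM in blood and 3.89 in HS33 to 8.72 in HS51 (log2FC 4.70 ± 1.00, adjusted p = 0.00165), while the lung control was at 8.22 and the liver control at 4.54, with spleen between them. *NAB2*, a corepressor that EGR1 induces and that limits it, was 3.57, 3.21 and 4.18 in blood and 5.15 to 8.13 in the tumors (log2FC 2.61 ± 0.55, adjusted p = 0.00145). Organ controls of *NAB2*, at 4.56, 4.75 and 3.69, lay below every tumor. *PTK2*, focal adhesion kinase, rose by 2.57 ± 0.50 against blood and turned to -0.35 with spleen and lung among the controls. *PDGFB*, a growth factor, was called at 1.99 but lost the call when any 1 of the blood controls was left out (adjusted p = 0.0779 to 0.137). *MAPK14* and *MAPK13*, p38 kinases of stress signaling, fell by 2.37 and 2.39: *MAPK14* was 8.31, 8.64 and 7.25 in blood and 2.81 to 6.66 in the tumors.

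Of 11 Wnt and Hedgehog genes tested 3 rose and 1 fell, beside 16.1% and 9.4% of all genes. *PTCH1*, the Hedgehog receptor, was -1.06, -0.90 and 0.44 log2 CPM in blood and 0.82 to 3.45 in the tumors (log2FC 2.74 ± 0.58, adjusted p = 0.00151). *SMO*, the transducer that PTCH1 inhibits, was called at 3.66 ± 0.99 but not without blood control 1 (adjusted p = 0.0565) or 3 (adjusted p = 0.0509). *GLI1*, a transcription factor and target of the pathway, ran opposite to its receptor: it was 4.45, 4.43 and 2.80 in blood and -0.31 to 2.20 in the tumors (log2FC -3.22 ± 0.43, adjusted p = 2.38e-05). *RSPO3*, a secreted amplifier of Wnt signals, had 0 counts in blood and counts in 14 tumors, at least 247-fold higher. All 3 organ controls also held *PTCH1*, *SMO* and *RSPO3* above blood.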

How the data were processed

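RNA of the 15 HS tumors and 3 blood controls was analysed; the cell-line table and the 3 hemophagocytic (HHS) tumors were not part of the tests. Groups come from the labels. The authors prepared stranded total RNA libraries. By the submitters' processing notes, cutadapt 3.7 trimmed the reads, STAR 2.7.10a mapped them on the CanFam3.1 build, and HTSeq 2.0.0 gave a count for each gene. They deposited raw counts, without normalization. The annotation release and the strand option are not given in the sources used here, so overlapping and antisense genes may share reads. By the methods, tumor content was estimated by histopathology and the tumors came from separate dogs. For blood the labels give separate samples only, so p-values measure the spread between these samples.

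From the counts, edgeR 4.0.16 (R 4.3.3, limma 3.58.1) gave log2FC with TMM factors (0.745 to 1.24 in HS, 0.965 to 1.12 in blood), the filterByExpr filter and the quasi-likelihood test with Benjamini-Hochberg adjustment. SEs are the log2FC divided by the root of F. The log2FC cutoff is the study's, which used DESeq2 with Benjamini-Yekutieli adjustment and a stricter adjusted p for its tumor comparison; each of these is an alternative here. HHS and organ levels were put on the same TMM scale. The factor of the liver control was 0.345, far below the 0.745 to 1.31 of all other libraries, which limits the comparison with its levels. Floors of 3 counts and folds against 0 counts (3 counts over the blood group) cover counting error only. No 2 libraries were duplicates (smallest chi-square per gene 881). Summaries used Python 3.11.15 (pandas 2.3.3, numpy 2.4.6, scipy 1.17.1), and plots used matplotlib 3.10.9.

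Names came from identifiers paired with names in the readable part of the supplementary tables (1025 by dog symbol, 101 by the human homolog alone). Most genes tested therefore have no name here, and the genes and lists named are drawn from that part alone. The RefSeq gene table matched 0 identifiers, so no coordinates or sequences are given. The genes named are, first, 10 at each end of the log2FC, taken from called genes that had a dog symbol, averaged 3 log2 CPM or more and did not overlap; up to 4 called members at each end of each list; and members of lists under 10 genes. The genes apart from all 6 controls, *IFNGR1*, *PLG* and any other members outside this rule were named after their values were seen. Members and the 21 lists (234 of 241 genes tested) were chosen with earlier results of these data known. Some list members are counted but not reported here by name. Alternatives were DESeq2 1.42.0, other factors, filters, fits, cutoffs, adjustments, samples and controls, and leaving out each library.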

Additional observations from a re-analysis of the deposited data

How the results depend on the processing

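DESeq2 called 6263 genes, of which 4947 were among the 5095, and RLE, upper quartile or library size scaling gave 4835 to 5071. These scalings moved the median log2FC by less than 0.1, DESeq2 by -0.11. Stricter rules lowered the counts: Benjamini-Yekutieli adjustment gave 2465 (1357 higher, 1108 lower), an adjusted p under 0.0005 gave 1040 (484 and 556, 46.5% higher against 63.1%), and a test against a log2FC of 1.5 itself gave 2292 (1567 and 725). Leaving out each library gave 3116 to 5261 calls, 1792 to 3273 higher and 1324 to 1988 lower, the lowest without a blood control. With the study's 5 controls, blood with spleen and lung, 3248 genes were called (1333 higher, 1915 lower, 41.0% higher) and the median log2FC moved by -0.45. That setting, which changes the control samples, turned *AFDN* to -0.63, *AKAP12* to -1.19, *PTPRB* to -3.72, *FLT4* to -0.51, *PODXL* to -1.80, *RDH16* to -0.47, *KLHL38* to -0.08, *COL14A1* to -0.29, *TNXB* to -0.13, *LAMA2* to -0.49, *SMOC2* to -1.75, *ENPP2* to -0.80, *LAPTM4B* to -2.82, *TLE1* to -2.25 and *PTK2* to -0.35. A minimum of 1 CPM in 3 libraries, lung tumors only, no filter and all 24 libraries in 1 fit moved the median by -0.21, -0.18, 0.22 and 0.14. No paired analysis was possible because tumors and blood come from different dogs and share no replicate number in the labels. The 3 blood libraries limit every result, and flow cell could not be fitted as a term.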

Other observations

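The 3 HHS tumors, from lymph node (HS41), liver (HS46) and lung (HS53), took no part in the comparison, and their levels are given as values on the same scale. *SMPDL3A* was 9.10, 12.07 and 8.66 log2 CPM in them, and *PTPRK* 6.38, 7.13 and 5.33, all inside the HS range. *FBP1* was 9.33, -0.93 and 6.51, so that HS46, taken from liver, lay below every HS tumor and every blood control. *DLA-DRA* was 11.94, 12.48 and 7.84 and *HLA-DRB1* 12.65, 12.04 and 7.87, with HS53 below the lowest HS tumor for both. *GTSE1* was 5.57, 2.93 and 4.76 and *KIFC1* 6.23, 4.30 and 5.74, with HS46 below the lowest HS tumor for both. Adding the 3 to the HS tumors gave 5159 calls, of which 4873 were among the 5095.

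Markers of epithelium, skeletal muscle and Schwann cells or melanocytes did not move together. None of 6 epithelial genes was called. *ROS1*, a receptor kinase of lung epithelium, had counts in 3 tumors, with 598 counts as the highest in a tumor and 5.79 log2 CPM in the lung control, and *AGER*, a marker of alveolar type I cells, was 0.78 to 5.61 log2 CPM in the tumors against 10.57 in the lung control. Of 7 skeletal muscle genes *KLHL38* rose from 0 counts in blood, at least 20.1-fold, and lost its call when any 1 of the blood controls was left out (adjusted p = 0.0635 to 0.07). Of 5 genes of Schwann cells and melanocytes tested *MBP*, which leukocytes also express from the same locus, fell by 2.32 (adjusted p = 1.28e-04) and *PMEL* by 1.84 (adjusted p = 0.027), the second not without blood control 1 (adjusted p = 0.0725) or 2 (adjusted p = 0.187).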
